A study of Homo sapiens with 32 samples.

Results

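The experiment described here is the removal of a distal element named E7 from HCT116, an established human colorectal cancer line, read by RNA sequencing of 1 deletion clone and of control clones. Its members are the 3 libraries labelled E7, from a single clone whose RNA was extracted on days A, B and C, out of 32 samples in the series, 26 of them RNA libraries. The clone had received Cas9-GFP together with guide RNAs against E7. It was set against 12 libraries of 4 control clones, each extracted on the same 3 days, that had received Cas9-GFP with an empty guide plasmid. All were grown from sorted, replated single cells. The 3 HCT116 libraries of clones lacking another element, 18qNE, were used only as a second set of levels.

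With 1 deletion clone, what follows from the loss of E7 and what sets this clone apart from other HCT116 clones cannot be told apart. The p-values below rest on the spread between the 4 control clones, and the E7 clone is assumed to vary as they do. Enhancers are distal DNA elements that bind transcription factors and raise transcription of genes that can lie far away. From earlier work E7 is placed at 8q24, around MYC, a region that holds several enhancers active in colon cancer. MYC is a transcription factor that binds DNA with its partner MAX, largely at sequences of the E-box type, and is known for driving ribosome production, nucleotide synthesis and cell division. HCT116 cells carry a defect of mismatch repair, grow as an epithelium and express few genes of the differentiated intestine.

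Gene counts per library were 14862268, 14239593 and 11487595 in the E7 libraries of days A, B and C, and 9871667 to 14445320 in the control libraries. CPM denotes a gene's count scaled to the total gene count of its library. EPCAM, a surface protein of epithelial cells, lay at 274 to 302 CPM in E7 libraries and at 280 to 388 CPM in control libraries. Among the other epithelial markers, KRT8, KRT18, CLDN3 and CLDN4 overlapped between the groups and were not called, KRT19 was called higher (log2 change 0.36, edgeR adjusted p = 0.0457) and CDH1, the cadherin of epithelia, was called lower. Defining genes of leukocytes (PTPRC, CD3E, SPI1), endothelium (CDH5) and neurons (ELAVL4) lay between 0 and 0.145 CPM in all 15 libraries. The 21 leukocyte markers summed to 2.7 to 5.05 CPM in E7 libraries and 3.45 to 8.52 CPM in control libraries, and the 11 endothelial markers present in the files to 4.85 to 5.38 CPM and 4.75 to 10.5 CPM. Of 6 tested leukocyte markers, LYZ was called higher and CD79B and CD8A lower, all at no more than 2.35 CPM in any library, and neither these calls nor that of KRT19 held in the repeats described below.

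MYC (ENSG00000136997.10, chromosome 8), the gene next to which E7 is known to lie, had 177, 162 and 216 CPM in the E7 libraries of days A, B and C, against a lowest value of 387, a median of 411 and a highest value of 482 CPM in the control libraries. No E7 library reached the lowest control library. Its log2 change was -1.19 (SE 0.11, edgeR quasi-likelihood test on counts summed per clone, adjusted p = 0.000733). On single days it was -1.28, -1.40 and -0.89, and it was called on each. The 18qNE libraries had 418 to 507 CPM, also above every E7 library. Beside MYC, 17 of 20 tested genes of the 8q24 list (MYC counted) were called lower and 0 higher, with a median of -0.91. The share called was 85%, against 13.9% of all genes, whose median was -0.01. Of the 17 calls, 14 passed again when each control clone or each day was left out in turn. The list was defined by position and includes NSMCE2, a SUMO ligase, at 9.62, 11.1 and 11.8 CPM in E7 libraries, against 33.6 to 51.0 CPM (median 40.3) in control libraries. It also includes TRIB1, a pseudokinase that targets proteins for degradation, at 180, 150 and 150 CPM in E7 libraries, against 389 to 631 CPM (median 452) in control libraries.

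Lower levels on chromosome 8 extended past those neighbours, and chromosome 12 stood apart in the other direction. Over 527 tested genes of chromosome 8 the median log2 change was -0.27, with 141 called lower and 26 called higher (31.69% called). Over 851 genes of chromosome 12 the median was 0.08, with 164 called higher and 42 lower (24.21%). On the remaining chromosomes the share called ran from 9.58% to 16.4%, and the medians from -0.08 to 0.04. Outside chromosomes 8 and 12, 1951 of 14119 genes with a chromosome were called (13.8%), 1069 higher and 882 lower. The chromosome is given below for most named genes on these 2 chromosomes. Whether the clone differs from the controls in copy number was not tested.

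**Figure D1:**
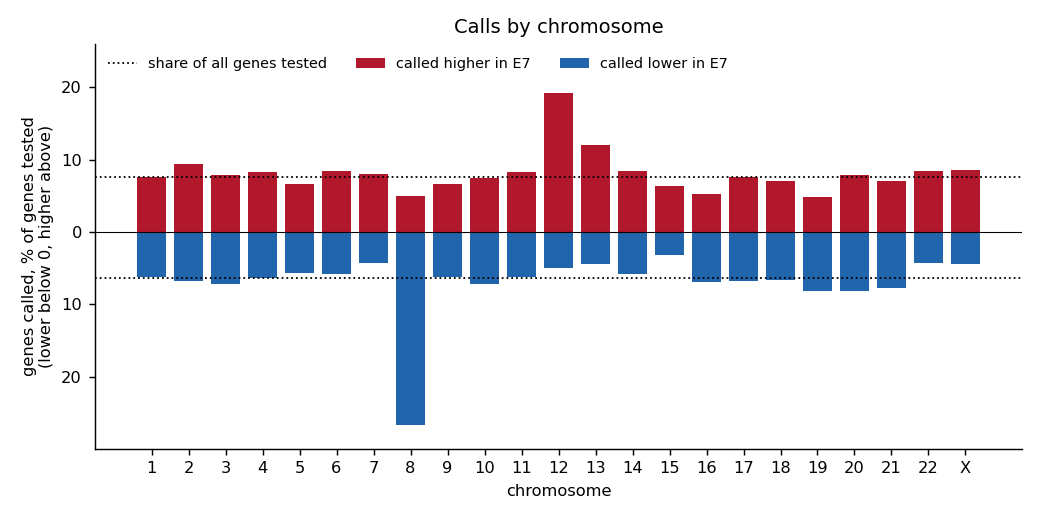
Share of tested genes called at an adjusted p under 0.05, by chromosome, in the E7 clone against 4 control clones; bars above 0 are genes higher in E7, bars below 0 genes lower in E7, and dotted lines give the shares over all 17664 genes (7.58% and 6.32%). Chromosome 8 has the longest bar below 0 and chromosome 12 the longest above 0.

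Across the transcriptome 13.9% of 17664 tested genes were called in either direction (2456 genes), 7.58% higher and 6.32% lower in E7, and 4.85% were called with at least a 2-fold change. The unadjusted p was under 0.05 for 5252 genes. Most changes were small. Among called genes the median absolute log2 change was 0.75, and 48 genes were higher and 56 lower by more than 4. Genes called higher held 13.6% to 14.5% of all gene counts in E7 libraries and 8.33% to 9.27% in control libraries, while genes called lower held 6.87% to 7.28% in E7 libraries and 10.5% to 12.1% in control libraries.

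**Figure D2:**
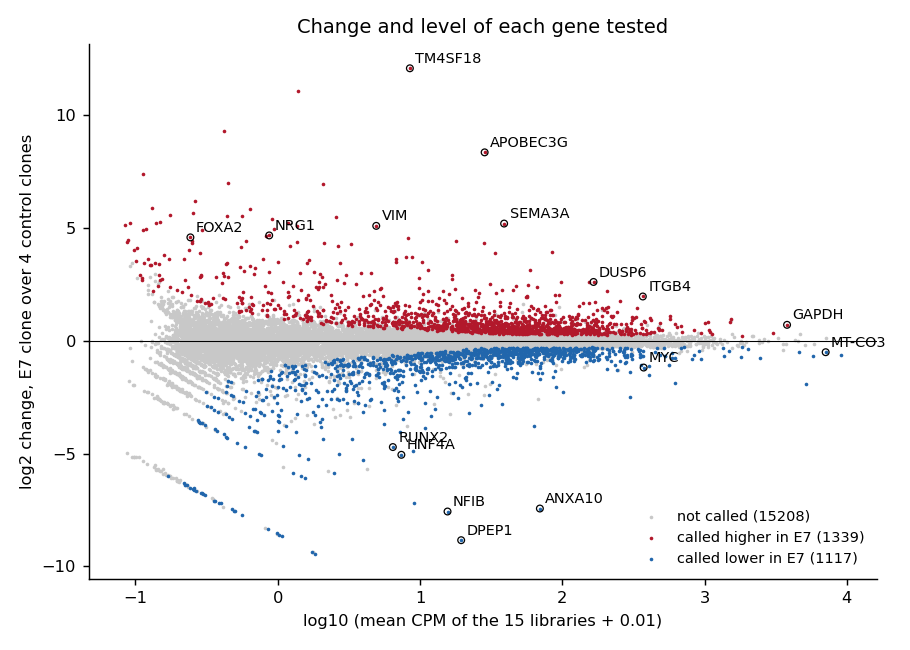
Log2 change of the E7 clone over 4 control clones (vertical) against log10 of the mean CPM of all 15 libraries plus 0.01 (horizontal), 1 point per tested gene, with genes called higher in red (1339), genes called lower in blue (1117) and the rest in grey. The circled genes other than MT-CO3 are described in the text; the slanting rows of points at the lower left are genes with few or no counts in the E7 libraries, whose fitted change depends on a prior count.

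Comparing within a day, each E7 library stood against 4 control libraries of its own day. On day A 4.31% of 15605 genes were called, on day B 6.51% of 14834 and on day C 13.4% of 14641. Of 2319 genes called on clone sums and tested on every day, 2317 had the same direction on all 3 days. The test passed on all 3 days for 462 genes, 3.23% of the 14319 tested throughout, 293 of them higher and 169 lower, and all 462 were also called on clone sums. With libraries as replicates and day as a term 34.8% of 14869 genes were called, a count that treats 3 libraries of 1 clone as independent. It included 2351 of the 2355 genes called on clone sums that were tested there, all 2351 with the same sign. The clone sums are made of the same libraries as the single days and the day-term fit. Agreement of these fits with the clone sums therefore follows largely from shared data and is no separate test. A difference between days in the effect of E7 was called for 0.0% of 14869 genes by edgeR (400 at an unadjusted p under 0.05). MYC had an unadjusted p of 0.00783 in that test, and an adjusted p of 1.0.

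Every E7 library lay above every control library for 7.5% of tested genes and below every one for 6.6%. Such a gap was seen for 868 genes called higher and 617 called lower that reached 5 CPM in the group where they were higher. The 3 18qNE libraries were on the control side of the E7 libraries as well for 760 of the 868 and 544 of the 617. The 18qNE libraries reached into the E7 range for CYC1, DSC3, GPRC5A, GRHL3, HSF1, IER3, ITGB5, NOLC1, NOTUM, NR4A2, PLXNB1 and RPL9, all named below. The same was true of CDCA3 and PUS7, also named below, for which E7 and control libraries overlapped as well. Leaving out each control clone or each day in turn, 1138 of the 2456 calls held in all 7 repeats, 663 higher and 475 lower, among them 525 of at least 2-fold and 459 of the 462 genes called on every day. Below, a call that "held" passed with the same sign in all 7 repeats.

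The largest changes in genes with at least 5 CPM included genes near 0 in 1 group and genes expressed in both. The naming rule, which asked that no E7 library overlap the control libraries, took 16 called genes in each direction. Of these 32, 31 were called on each day and held throughout, with the exception of CD33. The days and repeats use the same libraries as the choice, so this follows largely from the choice and is no separate test. TM4SF18, a membrane protein of the tetraspan type, had 52.4, 40.6 and 34.0 CPM in E7 libraries and 1 count in all 12 control libraries together, a ratio of 6394 (exact 95% interval 1146 to 252700, counting error only). APOBEC3G had 230, 100 and 91.6 CPM in E7 libraries, against 0.15 to 1.03 CPM (median 0.394) in control libraries. SYTL5, which binds Rab proteins on vesicles, had 14.3, 8.57 and 7.22 CPM in E7 libraries, against 0 to 0.346 CPM in control libraries. These 3 genes were near 0 in every control clone and expressed on every day in the E7 clone.

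Other genes of the higher set were expressed in the control clones too. COL9A3, a chain of a cartilage collagen, had 360, 345 and 300 CPM in E7 libraries, against 14.2 to 39.2 CPM (median 21.1) in control libraries. VSNL1, a neuronal calcium sensor, had 147, 110 and 97.9 CPM in E7 libraries and 2.74 to 11.3 CPM (median 4.91) in control libraries. TRHDE, an enzyme that degrades thyrotropin-releasing hormone, had a log2 change of 4.20 and NAV3, a microtubule-binding protein, of 4.43, and both lie on chromosome 12. The 18qNE libraries had 4.74, 0.355 and 3.98 CPM of TRHDE, against 9.42, 12.7 and 10.6 CPM in E7 libraries and at most 1.25 CPM in control libraries. SEMA3A, a secreted guidance cue for axons, had 232, 147 and 147 CPM in E7 libraries, against 0.849 to 12.1 CPM (median 4.43) in control libraries. The 18qNE libraries had 24.2 to 97.9 CPM of SEMA3A, so that a level above the control clones was also found in clones with another deletion. The antisense genes VIM-AS1 (5.22) and, on chromosome 12, KLRK1-AS1 (4.28) and the long noncoding RNAs LINC01405 (5.49) and LINC00326 (5.08) complete the set with VIM, FGF9, IGFBP3 and TWIST1 below. Reads of VIM-AS1 and VIM cannot be told apart, since no source used here states whether strand was used in counting.

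Among the 16 lower genes, some were near 0 in E7 libraries and others were still expressed. ANXA10, a calcium-dependent membrane-binding protein of gastric epithelium, had 0.269, 0.843 and 0.348 CPM in E7 libraries, against 68.8 to 98.3 CPM (median 88.8) in control libraries. DPEP1, a membrane dipeptidase, had 2 counts in the 3 E7 libraries, against 8.49 to 35.1 CPM in control libraries, 498.6-fold lower by pooled CPM (138 to 4119 by counting error). SYK, a kinase of immune receptor signalling also found in epithelia, had 3.57, 2.25 and 2.87 CPM in E7 libraries, against 12.2 to 44.9 CPM (median 25.6) in control libraries. DPYSL3, a cytoskeletal protein of growing axons, had 6.80, 4.63 and 5.05 CPM in E7 libraries and 69.3 to 89.4 CPM (median 76.7) in control libraries. PACSIN1 and WASF3, both tied to membrane and actin remodelling, fell by 4.04 and 3.88, the reductase CYB5R2 by 3.48 and ANKRD29 by 3.16. SDR16C5, a retinol dehydrogenase on chromosome 8, fell by 5.29. CD33, known from myeloid cells as a receptor for sialic acid, had 3 counts in E7 libraries and 1.40 to 20.2 CPM (median 12.2) in control libraries. Its call did not hold without control clone 1 (log2 change -6.90) or control clone 2 (-7.05), at nearly the same size as with all clones (-7.19, adjusted p = 0.0385).

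**Figure D3:**
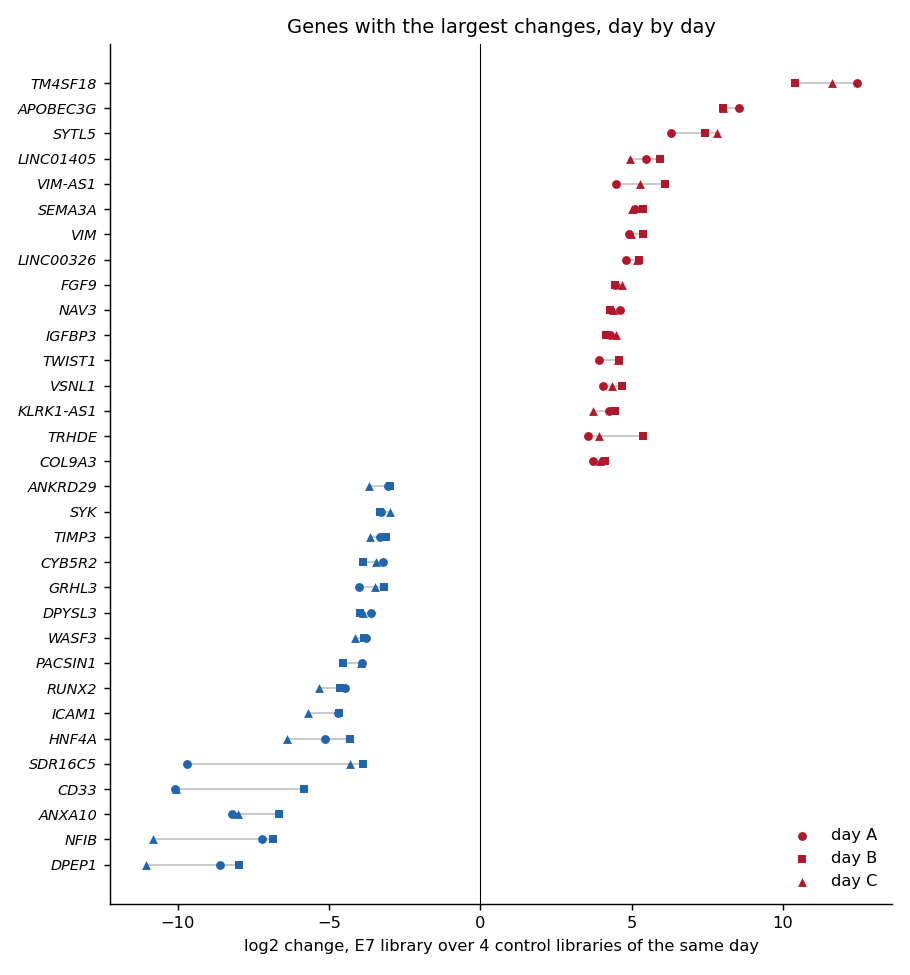
Log2 change of the E7 library over the 4 control libraries of the same day for the 32 genes with the largest changes (16 higher in red, 16 lower in blue); circles are day A, squares day B and triangles day C. All points of a gene lie on the same side of 0, and the wide spread of TM4SF18, CD33, SDR16C5, NFIB and DPEP1 goes with counts near 0 in 1 group.

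A further group of genes was at the floor of detection in 1 group, and was looked up after its values were known. At most 3 counts over the 3 E7 libraries, beside at least 1 CPM in control libraries, were found for 23 genes, 16 of them called. SLC40A1, the iron exporter ferroportin, had 0 counts in E7 libraries and 352 in control libraries, which is at least 32.1-fold lower at a floor of 3 counts over the group. PGBD5, a gene derived from a transposase, had 0 and 327 counts, at least 29.8-fold lower. BMP2, a ligand of the TGF-beta superfamily, had 0 and 181 counts, at least 16.5-fold lower. CA9, a carbonic anhydrase induced by hypoxia, had 0 and 317 counts, yet ranged from 0.153 to 7.05 CPM among control libraries and was not called (adjusted p = 0.125). The reverse was found for 6 genes, all called, among them TUSC3, an oligosaccharyltransferase subunit on chromosome 8, with 84 counts in E7 libraries and 0 in control libraries, at least 102-fold higher. MIA, a secreted protein first found in melanoma, had 86 counts in E7 libraries and 2 in control libraries.

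Several transcription factors that set cell identity changed in opposite directions within 1 family. Of 17 tested members of the NFI, RUNX and SOX list (21 listed), 4 were called higher and 5 lower, and 2 and 5 held. The share called was 52.94%, against 13.9% of all genes. RUNX1 had 134, 141 and 132 CPM in E7 libraries, against 18.9 to 38.1 CPM (median 25.6) in control libraries, a log2 change of 2.41 (SE 0.12, edgeR adjusted p = 5.42e-05). RUNX2, its relative known for bone formation, had 0.404, 0.281 and 0.174 CPM in E7 libraries, against 3.83 to 15.6 CPM (median 7.07) in control libraries, a change of -4.71 (SE 0.80, edgeR adjusted p = 0.00914). NFIB had 0.135, 0.141 and 0 CPM in E7 libraries, against 13.8 to 25.9 CPM (median 19.1) in control libraries. NFIA, the partner of NFIB in many tissues, fell by 0.93, at 22.7, 26.97 and 25.9 CPM in E7 libraries and 39.5 to 58.4 CPM in control libraries. SOX9, a factor of intestinal crypt cells, rose by 1.71 (228, 168 and 219 CPM in E7 libraries, 29.7 to 118 CPM in control libraries), while SOX8 fell by 2.48 and SOX12 by 0.78.

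The intestinal transcription factors had the same mixed pattern. Of 17 tested members (25 listed), 3 were called higher and 4 lower (41.18%, against 13.9% of all genes, median -0.31). HNF4A, a nuclear receptor that activates genes of intestine and liver, had 0.336, 0.351 and 0.0871 CPM in E7 libraries, against 4.25 to 15.2 CPM (median 8.34) in control libraries. It fell by 5.06 (SE 0.35, edgeR adjusted p = 0.000302). FOXA2, a pioneer factor of endoderm that opens chromatin, had 1.41, 0.913 and 0.696 CPM in E7 libraries and 0 to 0.0932 CPM in control libraries, low levels that did not overlap. EHF, an epithelial factor of the ETS family, had 212, 139 and 147 CPM in E7 libraries, against 6.28 to 52.2 CPM (median 33.4) in control libraries, a change of 2.49 (SE 0.39). KLF4, a factor of differentiated surface epithelium, fell by 1.02, the vitamin D receptor VDR, on chromosome 12, by 0.67 and FOXA3 by 0.76. Of these 7 calls 6 held, and that of FOXA3 was lost without control clone 1 (-0.75), control clone 2 (-0.77) or day A (-0.67). GRHL3, a factor of barrier epithelia, fell by 3.71 (0.673, 0.351 and 0.522 CPM in E7 libraries and 2.10 to 15.4 CPM in control libraries), with 0.525 to 22.2 CPM in the 18qNE libraries.

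Among 30 tested HOX genes, which give cells their position along the body axis, 4 were called higher and 2 lower (20%, against 13.9% of all genes). The higher 4 all lie in the HOXB cluster. HOXB3 had 50.1, 39.3 and 34.4 CPM in E7 libraries, against 7.26 to 22.8 CPM (median 14.9) in control libraries, and HOXB4 had 39.6, 38.0 and 35.8 CPM in E7 libraries, against 8.65 to 22.1 CPM (median 16.3) in control libraries. Both held, with changes of 1.47 and 1.22. HOXB6 (1.04) was lost without day B (0.92), and HOXB7 (0.51) without control clone 2 (0.53), day B (0.48) or day C (0.50).

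**Figure D4:**
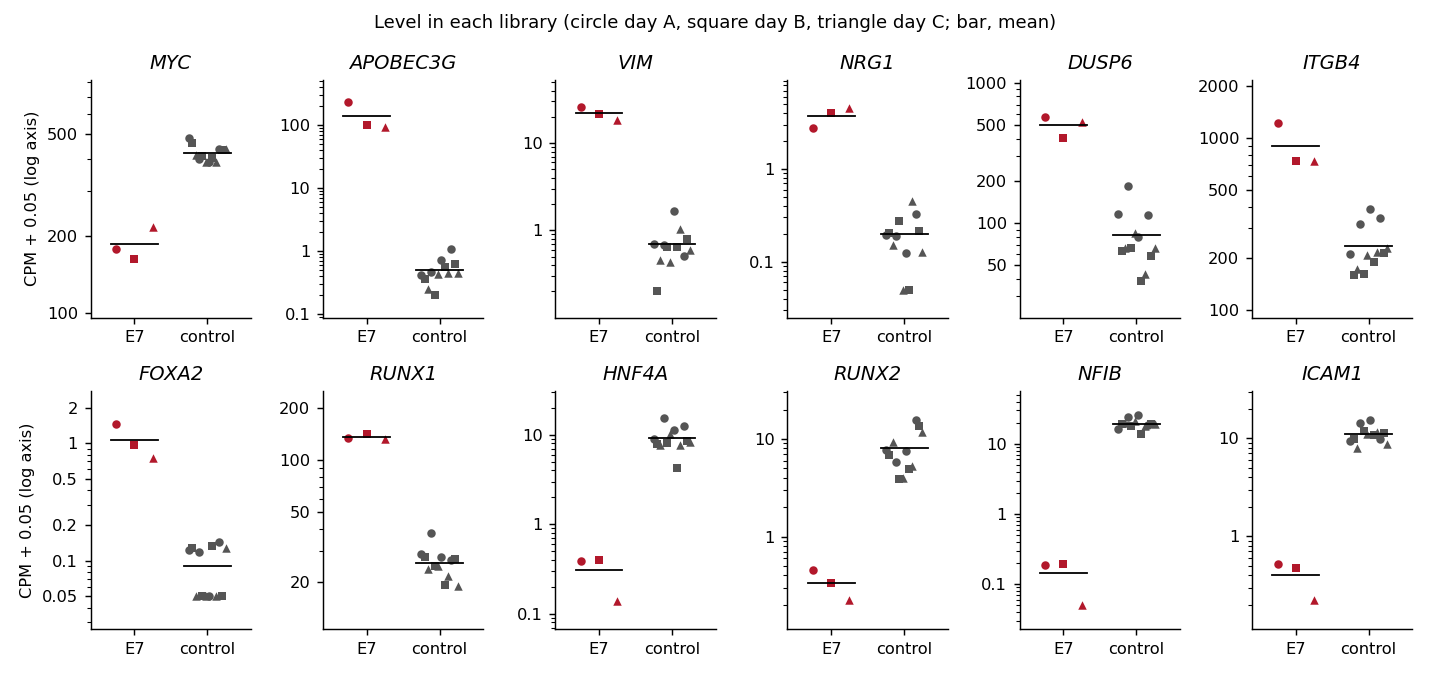
CPM plus 0.05 on a log axis for 12 genes in the 3 E7 libraries (red, left) and the 12 control libraries (grey, right); circles are day A, squares day B, triangles day C, and the horizontal bar is the mean. The groups do not overlap for any of the 12 genes, with MYC, HNF4A, RUNX2, NFIB and ICAM1 lower in E7 and the other 7 higher.

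Genes of adhesion, matrix and extracellular proteolysis rose more often than they fell. Integrins are paired receptors that tie cells to matrix proteins, and laminins and collagens are their ligands. Of 39 tested matrix and integrin genes (48 listed), 12 were called higher and 4 lower (41.03% called, against 13.9% of all genes), with a median of 0.21 against -0.01 over all genes, and 10 of the higher and 3 of the lower calls held. ITGB4, which pairs with ITGA6 to bind laminin, had 1229, 739 and 731 CPM in E7 libraries, against 160.7 to 388.8 CPM (median 214) in control libraries, a change of 1.96 (SE 0.17, edgeR adjusted p = 0.000648). ITGA6 itself had 396, 354 and 403 CPM in E7 libraries, against 79.6 to 156 CPM (median 112) in control libraries. ITGA3, another laminin receptor chain, rose by 1.03 and ITGB8, which activates latent TGF-beta, by 3.49. Among ligands, the transmembrane collagen COL13A1 rose by 3.51, LAMA5 by 0.75 and THBS1 by 1.77, whereas LAMA4 fell by 2.73 and COL4A6 by 2.13. All 5 integrin chains of the list that were called were higher, ITGB5 (1.00) among them with a call lost without day C (0.79), and the matrix chains moved both ways. Outside the list, and looked up after the values were known, ITGA10 rose by 1.86, whereas ITGA7, on chromosome 12, fell by 1.27 and ITGA2B by 1.14, the last a call that did not hold.

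Of 31 tested proteases and inhibitors (40 listed), 13 were called higher and 3 lower (51.61%, against 13.9% of all genes, median 0.43). Of these calls 10 and 2 held. SERPINA1, the antitrypsin inhibitor of elastase, had 34.7, 27.4 and 29.2 CPM in E7 libraries, against 1.16 to 5.12 CPM (median 2.15) in control libraries. ADAM19, a membrane metalloprotease that sheds growth factors such as neuregulin, had 674, 468 and 498 CPM in E7 libraries, against 48.6 to 246 CPM (median 114) in control libraries. PLAU, the urokinase that activates plasminogen, rose by 1.01, and its inhibitor SERPINE2 by 1.21. The inhibitors split, since TIMP3, an inhibitor of metalloproteases, fell by 3.34 (1.61, 1.48 and 1.13 CPM in E7 libraries and 10.4 to 23.9 CPM in control libraries), while TIMP2 rose by 0.64. MMP16, on chromosome 8, had 15 counts in E7 libraries and 1 in control libraries, and no longer passed the filter on low counts when any day was left out.

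VIM, the intermediate filament of mesenchymal cells, had 26.0, 21.8 and 18.1 CPM in E7 libraries, against 0.155 to 1.61 CPM (median 0.597) in control libraries, a change of 5.09 (SE 0.31, edgeR adjusted p = 0.00019). TWIST1, a factor of epithelial to mesenchymal transition, had 9.76, 8.36 and 8.36 CPM in E7 libraries, against 0.0775 to 1.39 CPM (median 0.389) in control libraries, and 0.426 to 3.78 CPM in the 18qNE libraries. Of 25 tested mesenchymal genes (36 listed), 8 were called higher and 3 lower (44%, against 13.9% of all genes), with 7 and 1 that held. SPARC, a matrix-binding glycoprotein, had 6.86, 3.30 and 2.18 CPM in E7 libraries, against 0 to 0.659 CPM in control libraries, and the ectonucleotidase NT5E rose by 2.25. TAGLN, an actin-binding protein, fell by 2.31. CDH2, the cadherin of mesenchymal cells, lay at 0 CPM in every E7 library and at no more than 0.0692 CPM in control libraries. FN1, fibronectin, lay at 9.69 to 14.8 CPM in E7 libraries and 11.04 to 30.8 CPM in control libraries and was not called (log2 change -0.76, adjusted p = 0.0944). Epithelial junction genes were called at 13.33% (45 tested, 2 higher and 4 lower, median -0.08), near the 13.9% of all genes, and DSC3, a desmosomal cadherin, rose by 1.82, with 30.6, 36.9 and 36.6 CPM in E7 libraries, 19.3 to 31.1 CPM in the 18qNE libraries and 3.99 to 16.1 CPM in control libraries. CDH1 had 53.6, 44.8 and 46.7 CPM in E7 libraries, against 51.3 to 114 CPM (median 80.6) in control libraries, so that 1 E7 library overlapped. It fell by 0.73 (edgeR adjusted p = 0.0185), a call lost without control clone 2 (-0.69).

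Growth factor signalling was the next group. Receptor tyrosine kinases bind secreted ligands and pass the signal through RAS to the MAPK cascade, which induces immediate early genes and its own inhibitors. Of 46 tested ligands, receptors and adaptors (54 listed), 11 were called higher and 5 lower (34.78%, against 13.9% of all genes, median 0.12). Of these calls 7 and 3 held. NRG1, the ligand of ERBB3 and ERBB4, lies on chromosome 8 and had 2.69, 3.93 and 4.53 CPM in E7 libraries, against 0 to 0.398 CPM (median 0.142) in control libraries, a change of 4.67 (SE 0.26). FGF9 had 38.1, 32.7 and 34.8 CPM in E7 libraries, against 0.594 to 2.91 CPM (median 1.35) in control libraries, and 4.13 to 6.96 CPM in the 18qNE libraries. PDGFB had 43.5, 48.3 and 65.8 CPM in E7 libraries, against 5.85 to 9.84 CPM (median 8.03) in control libraries. EREG, a ligand of EGFR, rose by 1.09 (891, 897 and 1167 CPM in E7 libraries and 228 to 642 CPM in control libraries), a call lost without control clone 1 (1.12), control clone 2 (1.12) or day C (0.94). Among receptors, EGFR rose by 1.06 and EPHA2 by 1.66, whereas FGFR4 fell by 0.51. On the insulin-like growth factor side, IGFBP3, a binding protein for these ligands, rose by 4.36 and the adaptor IRS1 fell by 1.29 (138, 102 and 92.0 CPM in E7 libraries and 207 to 380 CPM in control libraries).

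Of 37 tested MAPK output and immediate early genes, 13 were called higher and 5 lower (48.65%, against 13.9% of all genes, median 0.32). Of these calls 11 and 1 held. DUSP6, the phosphatase that switches off ERK and is induced by it, had 574, 401 and 528 CPM in E7 libraries, against 38.8 to 185 CPM (median 66.7) in control libraries, a change of 2.61 (SE 0.26, edgeR adjusted p = 0.00106). DUSP6 lies on chromosome 12. The other feedback inhibitors SPRY4 and, on chromosome 8, DUSP4 rose by 1.15 and 1.06, and the AP-1 subunit FOSL1 by 1.05, with 140, 210 and 248 CPM in E7 libraries and 66.5 to 113 CPM in control libraries. IER3 rose by 1.17 and NR4A2, an orphan nuclear receptor, by 1.64. EGR1, an early response factor, had 74.0, 61.0 and 108 CPM in E7 libraries and 15.1 to 76.5 CPM in control libraries, so that the groups overlapped, and its call (1.27) did not hold without day C (0.88). EGR2 (1.35) did not hold without control clone 1 (1.23), control clone 4 (1.36), day B (1.05) or day C (1.17). The stress-induced factor ATF3 fell by 1.26. Named members beyond the 4 largest of each list were chosen after their values were seen.

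Of 21 tested targets of YAP and TEAD, the effectors of Hippo signalling (24 listed), 10 were called higher and 1 lower. That is 52.38%, against 13.9% of all genes, with a median of 0.42, and 8 and 0 of these calls held. CCN2, a matricellular protein, had 5.18, 7.02 and 5.83 CPM in E7 libraries, against 0.101 to 1.80 CPM (median 0.633) in control libraries. AXL, a receptor kinase, had 108, 142 and 171 CPM in E7 libraries, against 22.5 to 42.9 CPM (median 35.9) in control libraries, and WWTR1, the YAP relative also called TAZ, had 149, 116 and 114 CPM in E7 libraries, against 32.1 to 70.1 CPM (median 38.5). ANKRD1 was under 1 CPM in all libraries, and its call (3.44) was lost without control clone 1 (3.31) or control clone 2 (3.26), without day C (3.37), and without day A, when it no longer passed the filter on low counts. The TGF-beta list, which shares CCN2 and PDGFB with others, had 6 of 30 tested members called higher and 8 lower. That is 46.67%, against 13.9% of all genes, with a median of -0.41, and 5 and 4 of these calls held. SMAD7, the inhibitory SMAD, had 0.875, 2.04 and 2.00 CPM in E7 libraries, against 5.88 to 12.7 CPM (median 8.91) in control libraries, and ID3, a target of BMP signalling, fell by 2.06. PMEPA1, another feedback inhibitor, rose by 2.69. Thus 2 feedback inhibitors of the pathway moved in opposite directions.

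The lists given next also had more calls than the 13.9% of all genes. The share called was 22.73% for Notch, 29.17% for Wnt and stem cell genes and 40% for annexins and S100 proteins. Among 31 tested axon guidance genes 8 were called higher and 1 lower (29.03%, median -5.16e-05), and SEMA3A, SEMA4C, SEMA6B and PLXNB1 held. ROBO1 had 15 counts in E7 libraries and 2 in control libraries and fell under the filter on low counts without day A or day B, and NRP1, a co-receptor of SEMA3A, rose by 1.66, a call lost without control clone 1 (1.76). In the Notch list (22 tested, 4 higher, 1 lower), MAML2, a coactivator of Notch, had 45.5, 27.1 and 28.6 CPM in E7 libraries, against 0.934 to 4.85 CPM (median 2.56) in control libraries. JAG1, a Notch ligand, rose by 1.43, and the target NRARP fell by 1.18. In the Wnt and stem cell list (24 tested, 2 higher, 5 lower), NOTUM, a secreted Wnt inhibitor, rose by 1.38 and BAMBI fell by 2.86, with 4.37, 3.58 and 5.75 CPM in E7 libraries and 21.3 to 52.2 CPM in control libraries. Annexins and S100 proteins had 6 of 20 tested members called higher and 2 lower, ANXA3 at 0.96 and S100A10 at 0.65 among the higher and S100A14 at -2.29 among the lower.

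**Figure D5:**
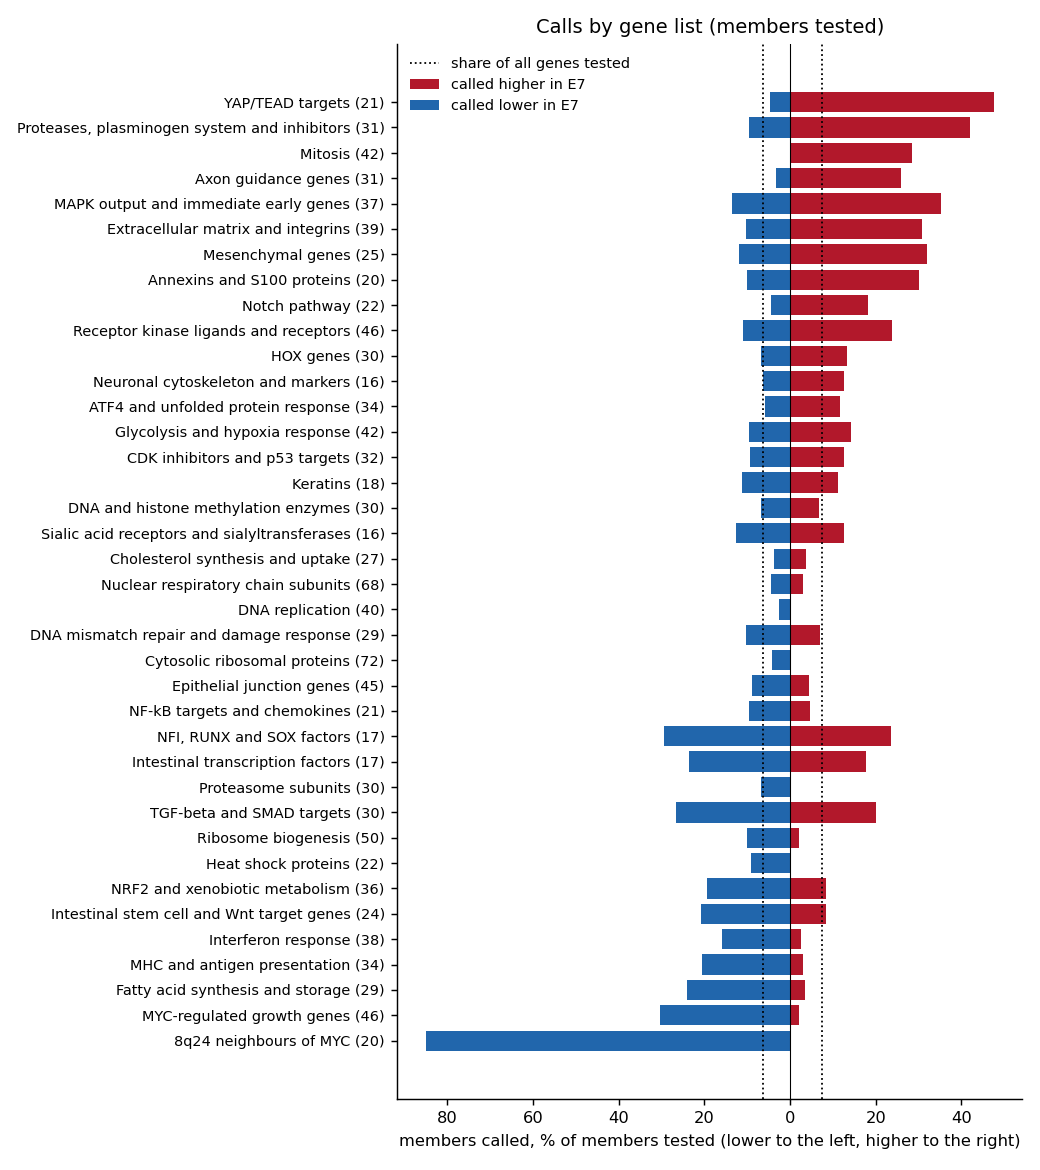
Share of tested members called higher (red, right) and lower (blue, left) in the E7 clone, for each gene list with at least 15 tested members (number in brackets); dotted lines give the shares over all tested genes, 7.58% higher and 6.32% lower. YAP/TEAD targets, proteases and MAPK output genes extend furthest to the right, and the 8q24 list and MYC-regulated growth genes furthest to the left among lists with few higher calls.

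Most genes known to be driven by MYC had smaller changes than MYC. Of 46 tested MYC-regulated growth genes (48 listed), 14 were called lower and 1 higher (32.61%, against 13.9% of all genes, median -0.19). Of the lower calls, 3 held. TCOF1, a nucleolar factor of ribosomal RNA transcription, had 123, 160 and 172 CPM in E7 libraries, against 214 to 377 CPM (median 327) in control libraries, and fell by 1.00 (SE 0.08, edgeR adjusted p = 0.000496). NOLC1, which works with TCOF1 in the nucleolus, had 326, 403 and 463 CPM in E7 libraries, against 496 to 774 CPM (median 714) in control libraries. PUS7, a pseudouridine synthase, fell by 0.51 and also held. FBL, the methyltransferase of ribosomal RNA, fell by 0.50, a call lost without control clone 1 (-0.46), control clone 2 (-0.52) or day B (-0.50). NOP2, a nucleolar methyltransferase on chromosome 12, rose by 0.41, a call lost without day C (0.34). A separate ribosome biogenesis list had 5 of 50 tested members called lower and 1 higher (12%, below the 13.9% of all genes, median -0.15), and 1 of these calls held. Cytosolic ribosomal proteins had 4.17% called (72 tested, 0 higher and 3 lower, RPL8, RPL30 and RPL9), DNA replication genes 2.5% (40 tested, MCM6 lower) and proteasome subunits 6.67%. Within the network of MYC partners (12 tested), MLX rose by 0.81 (102, 108 and 122 CPM in E7 libraries and 58.7 to 70.8 CPM in control libraries) and MAX, at 46.6 to 50.8 CPM in E7 libraries and 47.8 to 60.0 CPM in control libraries, was not called (-0.14, adjusted p = 0.336).

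To show the sequence through which MYC and MAX are known to act, promoters of the growth genes called lower were searched for the E-box CACGTG, which reads the same on both strands, in the window from 250 bases before to 50 bases after the start given by RefSeq (GRCh38.p14). Promoters were found by symbol for 11884 of the 17664 tested genes. The motif stood in 7.43% of all 27305 promoters of that length, in 9.81% of those of tested genes, in 13.3% of 724 promoters of genes called lower and in 7.17% of 990 promoters of genes called higher. It stood in 40.7% of 86 promoters of the growth and ribosome biogenesis genes tested, and in 8 of 16 promoters of those called lower. A match is a description of the letters and not a bound site. The 4 growth genes called lower with the smallest adjusted p among those with a match are given 5′ to 3′ on the strand of the gene, with the motif in capitals: PUS7 at chr7:105522222-105522521 (minus strand), the ribosomal RNA processing factor RRP9 at chr3:51941855-51942154 (minus strand), FBL at chr19:39846330-39846629 (minus strand) and PES1, a factor of large subunit assembly, at chr22:30591861-30592160 (minus strand). All 4 hold 1 match close to the start. TCOF1 and NOLC1 had smaller adjusted p than these 4, and either lacked a match or had no promoter found by symbol. Of the calls of these 4 genes, only that of PUS7 held. RRP9 fell by 0.46, a call lost without day B (-0.41). PES1 fell by 0.36, a call lost without control clone 1 (-0.32), control clone 2 (-0.37), day A (-0.36) or day B (-0.29).
PUS7: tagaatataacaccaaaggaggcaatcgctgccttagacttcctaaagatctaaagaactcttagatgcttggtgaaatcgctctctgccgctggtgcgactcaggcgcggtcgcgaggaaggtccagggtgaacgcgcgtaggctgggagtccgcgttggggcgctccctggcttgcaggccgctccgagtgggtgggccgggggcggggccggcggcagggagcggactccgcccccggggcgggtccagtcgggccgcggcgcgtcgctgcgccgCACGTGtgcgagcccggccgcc
RRP9: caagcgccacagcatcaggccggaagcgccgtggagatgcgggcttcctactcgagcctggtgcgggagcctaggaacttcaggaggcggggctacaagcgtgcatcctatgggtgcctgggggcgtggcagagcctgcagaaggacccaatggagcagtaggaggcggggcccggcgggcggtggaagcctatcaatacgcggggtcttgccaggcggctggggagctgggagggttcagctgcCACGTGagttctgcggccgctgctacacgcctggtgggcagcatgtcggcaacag
FBL: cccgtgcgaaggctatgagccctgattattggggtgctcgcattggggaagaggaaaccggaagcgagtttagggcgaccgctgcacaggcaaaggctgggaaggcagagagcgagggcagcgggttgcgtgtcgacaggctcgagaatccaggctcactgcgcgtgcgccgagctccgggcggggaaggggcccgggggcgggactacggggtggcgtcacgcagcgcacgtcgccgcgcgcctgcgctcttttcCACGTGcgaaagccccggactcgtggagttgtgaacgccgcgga
PES1: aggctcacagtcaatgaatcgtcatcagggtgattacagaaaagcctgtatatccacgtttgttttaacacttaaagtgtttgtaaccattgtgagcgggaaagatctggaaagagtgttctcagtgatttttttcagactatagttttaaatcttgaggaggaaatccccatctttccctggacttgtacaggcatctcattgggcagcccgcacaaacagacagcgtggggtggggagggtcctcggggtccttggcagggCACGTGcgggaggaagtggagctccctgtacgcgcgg

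Mitosis genes were called in 1 direction only. Of 42 tested members, 12 were called higher and 0 lower (28.57%, median 0.19), against 7.58% higher and 6.32% lower of all genes. The changes were small, CDC25C, a phosphatase that starts mitosis, being largest at 0.70, a call lost without day B (0.54). Of the 12, 3 held, PLK4 (0.46) and, on chromosome 12, FOXM1 (0.51) and CDCA3 (0.63). FOXM1, a factor that drives mitotic genes, had 193, 261 and 246 CPM in E7 libraries and 121 to 200 CPM (median 180) in control libraries, which overlapped. NCAPD2, a condensin subunit on chromosome 12, had 636, 751 and 634 CPM in E7 libraries, against 227 to 299 CPM (median 249) in control libraries. Among 32 tested CDK inhibitors and p53 targets, 4 were called higher and 3 lower (21.88%, against 13.9% of all genes). PLK2 rose by 1.27 and RRM2B, a ribonucleotide reductase subunit on chromosome 8, fell by 0.97.

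All 6 tested APOBEC3 genes, cytidine deaminases that restrict viruses and transposons, were higher in E7, on every day and in all 7 repeats. Besides APOBEC3G, APOBEC3C had 398, 237 and 242 CPM in E7 libraries, against 39.8 to 68.3 CPM (median 46.2) in control libraries. APOBEC3F had 87.9, 37.9 and 37.1 CPM in E7 libraries and 4.05 to 11.3 CPM (median 6.40) in control libraries, and APOBEC3B had 26.1, 28.3 and 24.6 CPM in E7 libraries and 4.34 to 9.92 CPM (median 6.27) in control libraries. The genes are neighbours on chromosome 22 and related in sequence. Whether reads were misplaced between members was not tested, so single members are uncertain. Of 38 tested genes of the interferon response, 6 were called lower and 1 higher (18.42%, against 13.9% of all genes, median -0.20), and 2 of the lower calls held. ISG15, a ubiquitin-like interferon product, had 40.4, 39.4 and 35.6 CPM in E7 libraries and 55.9 to 99.6 CPM (median 79.1) in control libraries, and IFI35 fell by 1.51. The MHC list (34 tested, 1 higher, 7 lower) had 23.53% called, against 13.9% of all genes. In it ERAP1, which trims peptides, rose by 1.18 and held, and none of the lower calls held. ICAM1, an adhesion receptor for leukocytes, fell by 4.88 (0.471, 0.421 and 0.174 CPM in E7 libraries and 7.90 to 15.3 CPM in control libraries). CD22, a sialic acid receptor known from B cells, rose by 2.99.

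The transporter ABCC2, which exports drug conjugates, had 79.1, 51.4 and 59.4 CPM in E7 libraries, against 163 to 457 CPM (median 390) in control libraries, a change of -2.49 (SE 0.19, edgeR adjusted p = 0.000407). In the same list 36 genes were tested, 3 called higher and 7 lower (27.78%, against 13.9% of all genes). ALDH1A3, which makes retinoic acid, rose by 1.55 and NQO1, a quinone reductase, by 0.83, while HMOX1 fell by 0.93. FTL, the light chain of the iron store ferritin, had 560.5, 418.9 and 554.8 CPM in E7 libraries, against 731 to 1250 CPM (median 854) in control libraries. TFRC, the transferrin receptor, picked after its value was seen, lay at 566 to 666 CPM in E7 libraries and 538 to 684 CPM in control libraries and was not called. Of 42 tested glycolysis and hypoxia genes, 6 were called higher and 4 lower (23.81%, against 13.9% of all genes). Of the 6 higher, 5 (GAPDH, ENO2, LDHB, SLC2A3 and TPI1) lie on chromosome 12. GAPDH, often taken as a constant reference, had 5703, 5437 and 5276 CPM in E7 libraries, against 3077 to 3843 CPM (median 3288) in control libraries. ALDOC, an aldolase elsewhere in the genome, fell by 1.61, a call lost without day C (-1.45). Of 29 tested genes of fatty acid synthesis and storage, 7 were called lower and 1 higher (27.59%, against 13.9% of all genes). Among the lower were MGLL at -2.22, ACSL1 at -1.17, and DGAT1 and FABP5 on chromosome 8. Of 27 tested cholesterol genes 7.41% were called, with SQLE, an epoxidase of cholesterol synthesis on chromosome 8, at -1.35. Nuclear respiratory chain subunits had 7.35% called, and the 3 lower ones (CYC1, NDUFB9 and COX6C) lie on chromosome 8.

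By absolute size, the largest CPM differences fell on abundant transcripts. Mitochondrially encoded mRNAs had 4 of 13 members called lower and 0 higher (30.77%, against 13.9% of all genes). MT-CO2 had 4552, 3842 and 3449 CPM in E7 libraries, against 5277 to 8004 CPM (median 6098) in control libraries, and the list as a whole summed to 36360 to 43160 CPM in E7 libraries and 47080 to 65990 CPM in control libraries. MT-ND4 fell by 0.63, a call lost without control clone 1 (-0.65) or control clone 2 (-0.62). PABPC1, which binds poly(A) tails, had 1544, 1568 and 1617 CPM in E7 libraries, against 2521 to 2861 CPM in control libraries, and lies on chromosome 8, as do RPL8, YWHAZ and PDP1 of the same set and RPL30. EZR, which links membrane to actin, had 2555, 2421 and 2564 CPM in E7 libraries, against 1081 to 1515 CPM (median 1301) in control libraries, and LMNA, the nuclear lamin, had 977, 897 and 926 CPM in E7 libraries, against 410 to 559 CPM. GPRC5A, a chromosome 12 gene for a receptor induced by retinoic acid, rose by 1.76 and PALLD, an actin scaffold, fell by 1.89. Of the 20 genes taken by this criterion, 18 held, the exceptions being EREG and MT-ND4. They were chosen among called genes without overlap in the same libraries, which favours such a count.

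Genes that maintain DNA and chromatin were called at about the share of all genes (13.9%). XRCC4, a factor of end joining, had 93.3, 78.1 and 72.8 CPM in E7 libraries, against 20.4 to 28.4 CPM (median 24.6) in control libraries, a change of 1.73 (SE 0.09, edgeR adjusted p = 0.000111). MSH6, a mismatch recognition factor, had 108, 107 and 101 CPM in E7 libraries, against 162 to 222 CPM (median 193) in control libraries. DNMT3B, a DNA methyltransferase, had 31.5, 32.8 and 34.3 CPM in E7 libraries, against 49.98 to 76.1 CPM (median 66.0) in control libraries. The lists around them had 17.24% (29 tested) and 13.33% (30 tested) of members called, near the share of all genes. Heat shock proteins (22 tested, HSPA1B and, on chromosome 8, HSF1 lower, 0 higher) and the ATF4 and unfolded protein list (34 tested, 4 higher, 2 lower) likewise had no more than 17.65% called.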

How the data were processed

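RNA of HCT116 clones was sequenced as single-end TruSeq libraries, per the labels' protocols. The authors deposited raw counts, whole numbers of reads for each gene, without normalization and with 1 library per file. Per the submitters' processing notes, TopHat2, HTSeq 0.6.1 and the build hg19 were used; no source used here states the strand setting. Of 57820 listed genes, 38648 had a symbol in the NCBI table. Lines that name no gene stayed out of library sizes; reads outside genes were 7.78% to 14.3%, ambiguous 3.03% to 3.60% and placed at several positions 12.3% to 13.8% of reads per library.

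Counts were summed over the 3 days of each clone, and the E7 clone was tested against 4 control clones with edgeR 4.0.16 in R 4.3.3 (quasi-likelihood F test, 2-sided, filterByExpr at a minimum count of 10, TMM factors, Benjamini-Hochberg adjustment over all genes, threshold 0.05). No E7 library was dropped or imputed. The same test was run on each day alone and on libraries with day as a term. Libraries of one extraction day share that day by their labels. Deviations from each clone's mean over days, averaged over control clones, correlated between E7 and control libraries of the same day (r = 0.563, 0.288 and 0.357 on days A, B and C). Between different days r ran from -0.442 to 0.212. The clones of 1 group were not otherwise described as separate cultures per day, so the spread may be partly technical. No pair of libraries agreed within sampling noise (lowest chi-square per degree of freedom 2.37, between control clones 1 and 2 on day B). These 2 clones were also the closest same-day control pair on day C (4.90), but not on day A (19.6, against 10.5 for clones 2 and 3). Clones that are alike narrow the spread on which the p-values rest. Whether control clones 1 and 2 are independent was not tested. The scripts were tested on simulated counts.

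Named genes were MYC; per direction up to 16 called genes with a symbol, at least 5 CPM in the higher group, every E7 library beyond every control library and the largest log2 change; per direction up to 10 with the largest CPM difference; and per list up to 4 called members with the largest change. The comparison, the 48 gene lists and these rules were chosen with earlier results of these data known. Alternatives were DESeq2 1.42.0, limma-voom (limma 3.58.1), other scaling and filters, left-out clones and left-out days. The exact intervals and the floor of 3 counts cover counting error only. Libraries of day D, of HEK293 cells and of chromatin were not analysed here.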

Additional observations from a re-analysis of the deposited data

Results flagged for a closer look

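Among 185 genes named by the rule, the summed level of 1 control clone stood far from the other 3 for 8, by a test of the gap over the whole range, which chance alone passes for about 1 in 20 genes. TIMP3 (0.873) had 21.3 CPM in control clone 3 and 11.7 to 12.96 CPM in the others, and LINC00326 (0.856) 0.394 CPM in clone 3 and 0.0979 to 0.141 CPM in the others. DNMT3B (0.867) was low in control clone 3, at 55.7 CPM and 65.0 to 66.5 CPM in the others. MLX (0.891) had 60.8 CPM in control clone 4 and 63.9 to 64.3 CPM in the others, and HLA-DRB1 (0.915) 0.534 CPM in clone 4 and 1.10 to 1.16 CPM in the others. HSF1 (0.842) had 122.0 CPM in control clone 2 and 130.5 to 132.1 CPM in the others. TM4SF18 and MMP16 (1.0 each) had 1 count in control clone 1 and 0 in the others. For all 8 genes the E7 clone lay beyond every control clone, on the same side as the reported change. Named genes were chosen as called on these libraries, which favours this.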

How the results depend on the processing

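No named gene changed direction under any alternative run. The 2456 calls became 5178 with libraries as units and the day as a replicate block, which the shared extraction days pair, and 4003 with limma-voom and the clone as a random effect. The count ran from 1477 (without control clone 1) to 3087 (without control clone 3) when a control clone was left out. It was 673 on day A alone, 965 on day B alone, 589 on day A with 18qNE libraries added to the reference, and 857 with a 2-fold threshold. DESeq2 called 3083 of 15950 genes, and RLE factors 2459. Of 185 named genes, 130 were called in all 7 repeats that left out a control clone or a day. The call was lost for 32 of the 185 without control clone 1, 32 without control clone 2, 0 without control clone 3 and 4 without control clone 4; the cause was not tested. Under the day block it was lost for 0 of the 177 tested there. Genes under 1 CPM rest on few counts.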
